A study of Arabidopsis thaliana with 12 samples.

Results

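Rosette leaves of wild type Arabidopsis thaliana that received 2'cADPR were compared with wild type leaves that received water, using 3 RNA-seq libraries of each, 6 of the 12 libraries in the series. The libraries were chosen by their titles and labels and by nothing measured. The other 6 libraries, 3 after 2'cADPR and 3 after water, came from plants with a knockout of PAD4, called pad4 here. They are part of the fit of all 12 libraries, and so of its filter and its estimate of spread. Otherwise they are used only where the wild type response is set beside theirs. A fit of the wild type libraries alone called 13003 of 19019 tested genes, beside 13608 of 19652 in the main fit. The wild type plants are of the accession Col-0, per the series' design text, and carry no transgene that the labels name. The series was set up to ask how leaves respond to 2'cADPR and whether EDS1, PAD4 and ADR1 are needed for it. Dose, route, time after application and plant age were not given in the sources used here. Nothing says whether replicates came from separate plants, so a p-value here reflects the spread among the 3 libraries within each of the 4 groups, which could be technical.

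2'cADPR is a small cyclic nucleotide, a variant of cyclic ADP-ribose, that plant and bacterial TIR-domain proteins make from NAD when an infection is sensed. In plant immunity, signals of this kind act through EDS1 with its partners PAD4 or SAG101 and then through helper receptors of the ADR1 and NRG1 families. Immune activation in leaves is known to go together with changes outside classical defence: in photosynthesis and sugar use, in the small molecules a leaf makes, in its walls and cuticle, and in growth. These functions are described here.

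Library totals of the 6 wild type libraries lay between 35.8 and 44.4 M (1e6) counted reads, and no 2 libraries held identical counts. Levels are in CPM, counts per 1e6 of the TMM-scaled library total, and folds are log2 values of 2'cADPR over water with their standard error (SE) from edgeR's quasi-likelihood fit of all 12 libraries. A mean is given with the SD over the 3 libraries of a group. CPM is not corrected for transcript length, so levels are compared within a gene. A gene rose or fell where its Benjamini-Hochberg adjusted p over all 19652 tested genes was under 0.05. Of these genes 34.6% rose and 34.6% fell, 12.8% rose and 17.8% fell by at least 2-fold, and the median log2 was -0.01 with quartiles at -0.74 and 0.55. In bulk leaf RNA, fewer cells of a type and less RNA per cell cannot be told apart. The leaf label was met by its markers: the 5 mesophyll markers made up 1.06% to 1.198% of counts after 2'cADPR and 2.06% to 2.53% after water, while no root or shoot meristem marker had enough counts to be tested. Of 5 flower and seed markers 1 could be tested, the floral gene AG (AT4G18960). Its level was low, at 0.550 ± 0.199 CPM after 2'cADPR and 1.32 ± 0.0977 CPM after water, and it fell (log2 -1.26).

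In 51 lists of metabolic, wall, transport and growth genes, 1039 genes could be tested, of which 295 rose and 533 fell. The lists whose medians lay lowest were aliphatic glucosinolate synthesis, expansins, cutin and wax, and starch breakdown. Those whose medians lay highest were coumarin and sinapate synthesis, autophagy, ABC and MATE transport, and alternative respiration. Over members with at least 5 CPM in at least 3 libraries the coumarin and sinapate median was 0.09, and that of alternative respiration, at 0.97, was the highest. Counts of rises or of falls have to be read against the 34.6% of all tested genes that went each way, and counts in either direction against 69.2%. The lists were chosen with earlier results of these data known, so their totals and order are not an unbiased survey.

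**Figure D1:**
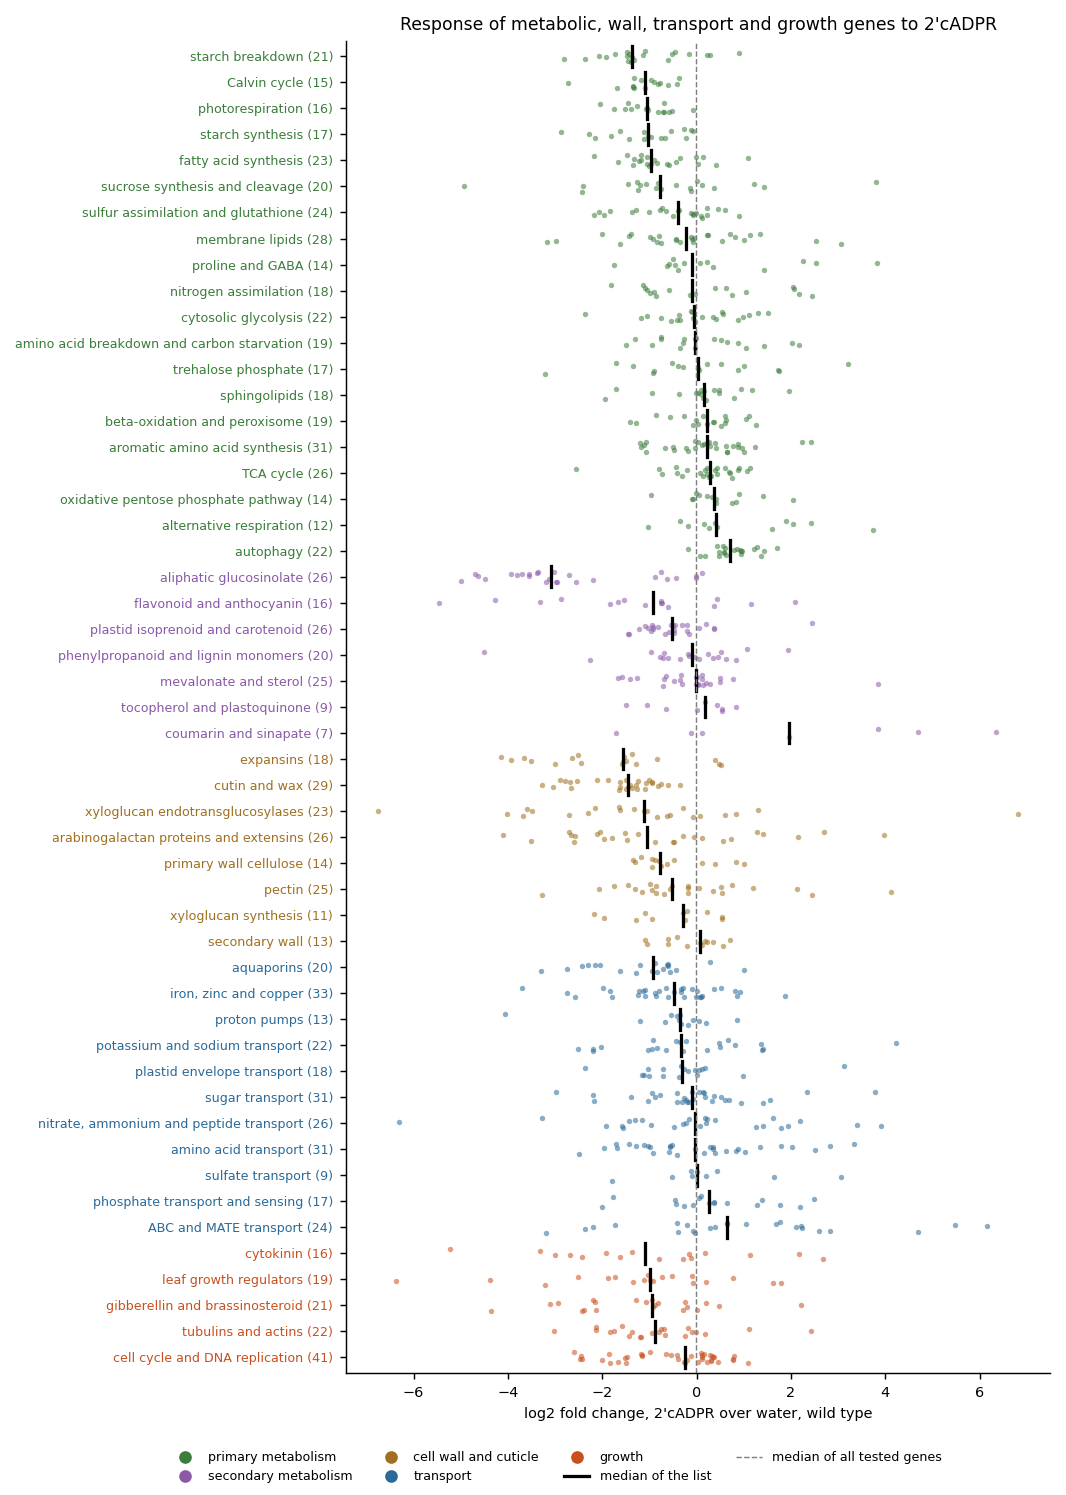
Each point is a tested gene, placed by its log2 fold change (2'cADPR over water in wild type), in rows by gene list with the number of tested members in brackets; black bars are list medians and the dashed line is the median of all tested genes. EGL3 and XTH15, which had no reads after 2'cADPR, are drawn at the bound that a floor of 3 counts gives. The bar of aliphatic glucosinolate synthesis lies at -3.08 and that of coumarin and sinapate synthesis at 1.97.

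The 2 largest rises and 2 largest falls among list members whose higher group mean was 5 CPM or more and whose groups did not overlap were in enzymes that rework the wall and in enzymes of secondary products. XTH10 (AT2G14620) encodes a xyloglucan endotransglucosylase/hydrolase, an enzyme that cuts and rejoins the xyloglucan chains between cellulose fibrils, and lies at chr2:6244772-6246279 on the plus strand. It stood at 49.4, 57.7 and 43.8 CPM after 2'cADPR, against 0.385, 0.612 and 0.337 CPM after water. XTH31 (AT3G44990), of the same family and at chr3:16446935-16448844 on the minus strand, went the other way, with 0.645, 0.465 and 0.824 CPM after 2'cADPR, against 61.3, 67.7 and 80.3 CPM after water. The groups did not overlap for either gene, as was so for 71.8% of all tested genes (XTH10 log2 6.82 ± 0.27, adjusted p = 3.57e-11; XTH31 log2 -6.76 ± 0.20, adjusted p = 4.21e-12). F6'H1 (AT3G13610), at chr3:4449259-4450811 on the plus strand, encodes the feruloyl-CoA 6'-hydroxylase that commits phenylpropanoids to scopoletin and related coumarins. Its libraries read 82.7, 106 and 81.2 CPM after 2'cADPR, against 0.879, 0.505 and 1.85 CPM after water (log2 6.35 ± 0.27, adjusted p = 5.69e-11), and without the third water library the log2 was 7.02. GSTF11 (AT3G03190), at chr3:734892-735987 on the plus strand, encodes a glutathione transferase assigned to the core of aliphatic glucosinolates. Its level was 0.287, 0.279 and 0.170 CPM after 2'cADPR, against 7.78, 7.36 and 8.49 CPM after water (log2 -4.99 ± 0.18, adjusted p = 1.62e-11), so that every treated library was below every water library.

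The promoters of these 4 genes are shown because they stand at these ends of the range. Each is the 250 bases before the annotated gene start on the gene's own strand, from the RefSeq TAIR10.1 genome. XTH10 is chr2:6244522-6244771 (plus strand), F6'H1 chr3:4449009-4449258 (plus), XTH31 chr3:16448845-16449094 (minus) and GSTF11 chr3:734642-734891 (plus). Capitals mark each match, on either strand, to 1 of 7 motifs. The W-box core, bound by WRKY factors, was searched as TTGAC, and the as-1 core as TGACG. The G-box was spelled CACGTG, and the CAMTA core was spelled CGCGT. A TCP site reads GGCCCA in this search. The telobox was taken as AAACCCT, and the evening element of clock-controlled genes as AATATCT.
XTH10: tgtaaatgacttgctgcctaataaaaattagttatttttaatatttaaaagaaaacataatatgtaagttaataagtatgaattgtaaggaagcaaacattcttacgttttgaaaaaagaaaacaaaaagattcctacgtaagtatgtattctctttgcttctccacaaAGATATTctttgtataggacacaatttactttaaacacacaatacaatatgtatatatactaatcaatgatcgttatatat
F6'H1: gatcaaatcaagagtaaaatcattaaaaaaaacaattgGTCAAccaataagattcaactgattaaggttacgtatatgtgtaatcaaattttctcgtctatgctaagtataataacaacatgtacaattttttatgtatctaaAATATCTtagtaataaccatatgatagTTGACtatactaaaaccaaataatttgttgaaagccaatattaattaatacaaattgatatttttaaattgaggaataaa
XTH31: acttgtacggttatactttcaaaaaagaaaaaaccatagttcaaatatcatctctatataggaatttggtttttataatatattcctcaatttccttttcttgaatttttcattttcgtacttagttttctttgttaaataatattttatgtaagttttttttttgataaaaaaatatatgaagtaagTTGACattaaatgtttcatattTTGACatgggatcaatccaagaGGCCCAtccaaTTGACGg
GSTF11: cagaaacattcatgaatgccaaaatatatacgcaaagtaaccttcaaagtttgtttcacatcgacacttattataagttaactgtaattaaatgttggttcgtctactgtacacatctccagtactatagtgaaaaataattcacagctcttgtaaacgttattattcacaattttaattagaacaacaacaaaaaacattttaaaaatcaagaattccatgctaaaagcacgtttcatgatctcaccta
F6'H1 held 2 W-box cores, 1 in each orientation, and an evening element. XTH31, which fell, held 3 W-box cores, the last of which overlaps an as-1 core, and a TCP site. XTH10 held an evening element only, and GSTF11 held none of the 7 motifs, which says only that these letters are not in this window.

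Across 19017 promoters of tested protein-coding genes cut in the same way, 45.0% held a W-box core. The share was 58.0% among the 2461 promoters of genes that rose at least 2-fold and 40.0% among the 3411 of genes that fell at least 2-fold. For the CAMTA core, which calmodulin-binding transcription activators bind, the shares were 10.8% with the rises and 6.13% with the falls, beside 7.58% of all. The as-1 core, bound by TGA factors, was in 23.1% and 17.7%, beside 19.3% of all; part of these matches are also W-box cores, since TTGACG holds both. TCP sites were in 11.54% of the promoters of rising genes and 12.96% of those of falling genes, below the 16.9% of all promoters in both. The telobox shares, 4.75% and 5.16% in the same order, were likewise both below the 6.30% of all promoters. The G-box (7.64%, 7.45% and 7.32%) and the evening element (10.7%, 10.7% and 10.3%) lay closer together. These shares are descriptions and no test was run on them.

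Genes that fix carbon and recover it by photorespiration were lower after 2'cADPR. All 15 tested Calvin cycle genes fell (median log2 -1.09), as did 15 of 16 photorespiration genes (median -1.04), where the background of falls was 34.6%. The Calvin cycle list made up 1.08% to 1.18% of counts after 2'cADPR and 2.15% to 2.46% after water. The plastid aldolase gene FBA1 (AT2G21330) had the lowest log2 of that list, at 126, 108 and 134 CPM after 2'cADPR, against 721, 829 and 884 CPM after water (log2 -2.73 ± 0.10, adjusted p = 1.58e-11). SBPASE (AT3G55800), for sedoheptulose-bisphosphatase of the regenerative phase, averaged 301 ± 21.8 CPM after 2'cADPR and 965 ± 100.5 CPM after water (SD, n = 3 each). GAPB (AT1G42970), a subunit of the glyceraldehyde-phosphate dehydrogenase of the cycle, averaged 877 ± 8.67 CPM after 2'cADPR and 2201 ± 213 CPM after water. In photorespiration, HPR (AT1G68010) for peroxisomal hydroxypyruvate reductase fell to 195 ± 12.2 CPM after 2'cADPR, against 808 ± 85.7 CPM after water. GLDT (AT1G11860), the T-protein of glycine decarboxylase, had a log2 of -1.75, and GOX1 (AT3G14420), a glycolate oxidase with a near-identical neighbour GOX2 (AT3G14415) that could share its reads, one of -1.51. Of the mesophyll marker list 4 of 5 genes fell and none rose. All 5 are themselves photosynthesis genes, and their part in these results was not tested.

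The largest losses of counts in wild type leaves lay mostly in photosynthesis genes, of carbon fixation and of the light reactions, with THI1 and PRP4 outside these. Ranked by the fall in mean CPM, the first 10 genes were RBCS1A (AT1G67090), CAB1 (AT1G29930), THI1 (AT5G54770), RBCS3B (AT5G38410), PRP4 (AT4G38770), RCA (AT2G39730), RBCS2B (AT5G38420), CA1 (AT3G01500), PSBP-1 (AT1G06680) and LHCB5 (AT4G10340). Among them THI1, which makes the thiazole part of thiamine, stood at 980.1, 854 and 1142 CPM after 2'cADPR, against 4432, 5407 and 5548 CPM after water. PRP4, a proline-rich wall protein, stood at 574, 726 and 605 CPM after 2'cADPR, against 2822, 3632 and 3836 CPM after water. CA1, the main plastid carbonic anhydrase, averaged 815 ± 17.2 CPM after 2'cADPR and 2972 ± 454 CPM after water. In each of these the groups were apart (-2.37, -2.43 and -1.87 on the log2 scale). RBCS1A, RBCS2B and RBCS3B are near-identical copies of the Rubisco small subunit, and CAB1 has near-identical neighbours, so reads may have been shared among them.

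Starch genes fell on both sides of the store. Of 17 genes of synthesis 14 fell and 0 rose (median log2 -1.03), and of 21 genes of breakdown 17 fell and 2 rose (median -1.36). The isoamylase subunit gene DBE1 (AT1G03310), on the synthesis side, stood at 14.5, 13.6 and 15.4 CPM after 2'cADPR, against 93.9, 109 and 115 CPM after water (log2 -2.87 ± 0.09, adjusted p = 5.83e-12). SS3 (AT1G11720), a starch synthase, and SBE2.1 (AT2G36390), a branching enzyme, had log2 values of -2.28 and -1.81. On the breakdown side, DPE1 (AT5G64860), the plastid enzyme that works on maltotriose, stood at 10.9, 11.1 and 12.6 CPM after 2'cADPR, against 66.6, 87.2 and 89.6 CPM after water (log2 -2.82 ± 0.11, adjusted p = 2.69e-11), and MEX1 (AT5G17520), which exports maltose from the plastid, at 6.54, 5.48 and 5.40 CPM after 2'cADPR, against 27.95, 30.9 and 31.0 CPM after water (log2 -2.37 ± 0.09, adjusted p = 2.86e-11). No library of one group reached the range of the other in any of these. DPE2 (AT2G40840), which acts on that maltose in the cytosol, had a log2 of -1.92, and AMY2 (AT1G76130), an alpha-amylase, one of 0.90.

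Sucrose genes more often fell than rose, and the 3 that rose are of invertase families. In the list of synthesis and cleavage 11 of 20 genes fell and 3 rose (median log2 -0.78). SPS4F (AT4G10120), a sucrose phosphate synthase, averaged 27.3 ± 4.92 CPM after 2'cADPR and 144 ± 9.10 CPM after water, and UGP2 (AT5G17310), which supplies UDP-glucose, 17.4 ± 0.349 CPM after 2'cADPR and 39.6 ± 2.01 CPM after water. The vacuolar invertase BETAFRUCT4 (AT1G12240) had a log2 of -2.42. CINV1 (AT1G35580), a cytosolic invertase, averaged 301 ± 9.37 CPM after 2'cADPR and 112 ± 5.69 CPM after water. CWINV6 (AT5G11920), of the cell wall invertase family, stood at 172, 172 and 121 CPM after 2'cADPR, against 13.9, 10.2 and 9.30 CPM after water (log2 3.80 ± 0.18, adjusted p = 1.46e-10). The third gene that rose, CWINV1 (AT3G13790), was chosen after its values were seen (log2 1.21). Genes of trehalose 6-phosphate, a signal of sucrose status, rose in 7 and fell in 6 of 17 cases. TPS5 (AT4G17770), of the class of trehalose phosphate synthase proteins thought to be regulatory, stood at 6.11, 5.92 and 6.76 CPM after 2'cADPR, against 49.7, 65.3 and 58.7 CPM after water (log2 -3.21 ± 0.11, adjusted p = 1.41e-11), while the phosphatase gene TPPG (AT4G22590) and the trehalase gene TRE1 (AT4G24040) had log2 values of 1.73 and 1.74.

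Genes of the TCA cycle, the oxidative pentose phosphate pathway and alternative respiration rose more often than they fell. In the TCA cycle 16 of 26 genes rose and 7 fell (median log2 0.28). The oxidative pentose phosphate pathway, a source of NADPH, had 8 of 14 up and 1 down (median 0.37). The alternative respiration list holds bypass enzymes of the mitochondrial electron chain, and also other proteins such as OM66 and UCP2. In it 6 of 12 rose and 2 fell, and the list made up 0.0608% to 0.0672% of counts after 2'cADPR and 0.0252% to 0.0290% after water. AOX1A (AT3G22370), the alternative oxidase, averaged 141 ± 12.6 CPM after 2'cADPR and 46.2 ± 2.33 CPM after water, and NDA2 (AT2G29990), an internal rotenone-insensitive NADH dehydrogenase, 154 ± 2.69 CPM after 2'cADPR and 41.3 ± 5.83 CPM after water. OM66 (AT3G50930), an outer membrane AAA protein, stood at 125, 140.2 and 102 CPM after 2'cADPR, against 30.0, 19.1 and 19.2 CPM after water (log2 2.43 ± 0.18, adjusted p = 1.26e-08), with all treated libraries above all water libraries. The uncoupling protein gene UCP2 (AT5G58970) fell by 1.03 on the log2 scale. Among 40 tested genes of the respiratory chain itself 6 rose and 12 fell, below the background in both directions.

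Within the TCA cycle the direction depended on the gene. IDH6 (AT3G09810), a catalytic subunit of NAD-dependent isocitrate dehydrogenase, averaged 99.1 ± 1.51 CPM after 2'cADPR and 45.3 ± 0.782 CPM after water. FUM2 (AT5G50950), the cytosolic fumarase that makes fumarate as a daytime carbon store in leaves, stood at 53.1, 54.0 and 61.4 CPM after 2'cADPR, against 299, 336 and 360.0 CPM after water (log2 -2.56 ± 0.09, adjusted p = 2.06e-11). FUM1 (AT2G47510), its mitochondrial counterpart, which was chosen after its values were seen, rose by a log2 of 0.26. Cytosolic glycolysis showed no common direction, with 9 up and 8 down of 22 (median -0.05, or 0.002 with RLE scaling). Its phosphofructokinase genes PFK3 (AT4G26270, 125 ± 4.42 CPM after 2'cADPR and 44.1 ± 2.77 CPM after water) and PFK7 (AT5G56630, log2 0.98) and the pyruvate phosphate dikinase gene PPDK (AT4G15530, 1.303) rose. ALDH11A3 (AT2G24270), the non-phosphorylating glyceraldehyde-phosphate dehydrogenase, fell to 23.2 ± 1.12 CPM after 2'cADPR, against 120.0 ± 12.9 CPM after water. In the pentose phosphate pathway the cytosolic dehydrogenase G6PD6 (AT5G40760) rose (144 ± 16.4 CPM after 2'cADPR and 54.3 ± 5.71 CPM after water) and the plastid dehydrogenase G6PD1 (AT5G35790) fell (65.6 ± 4.35 CPM after 2'cADPR and 128 ± 13.9 CPM after water).

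**Figure D2:**
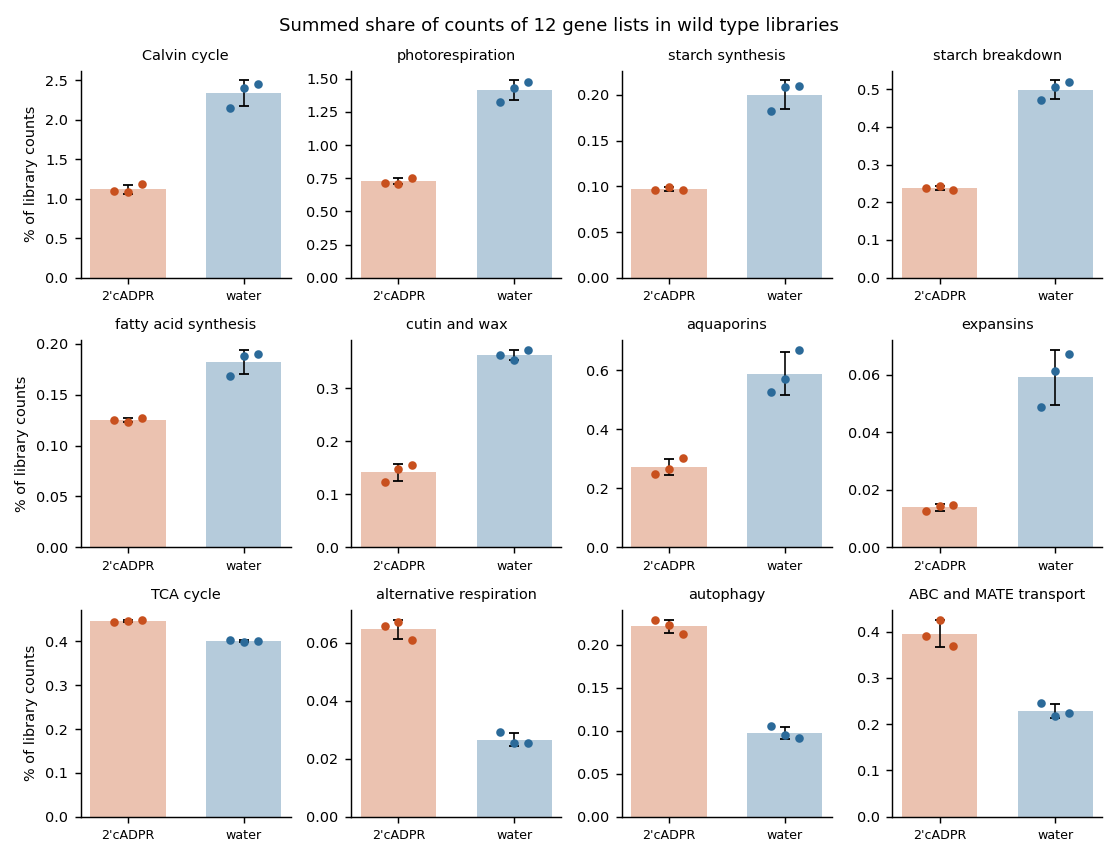
Each panel gives, for one gene list, the percent of all counts of a wild type library that its members took: points are the 3 libraries of a group, bars their mean and whiskers the SD, with 2'cADPR left of water. In all 12 panels the 3 treated libraries lie on one side of the 3 water libraries, below them in the upper 8 panels and above them in the lower 4.

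Nitrogen genes moved both ways. The assimilation list had 8 up and 8 down of 18 (median log2 -0.09). GSR1 (AT5G37600), a cytosolic glutamine synthetase, stood at 1609, 1586 and 1604 CPM after 2'cADPR, against 501, 341 and 326 CPM after water (log2 2.04 ± 0.13, adjusted p = 3.35e-09). NIA1 (AT1G77760), one of the nitrate reductase genes, stood at 136, 154 and 163 CPM after 2'cADPR, against 26.7, 29.3 and 27.1 CPM after water (log2 2.45 ± 0.22, adjusted p = 1.10e-07). The treated libraries were above the water libraries for both. GS2 (AT5G35630), the plastid glutamine synthetase, and GLU1 (AT5G04140), the plastid glutamate synthase, chosen after their values were seen, fell by 0.86 and 1.09 on the log2 scale. ASN2 (AT5G65010), an asparagine synthetase, averaged 33.3 ± 6.07 CPM after 2'cADPR and 117 ± 12.9 CPM after water, and GDH2 (AT5G07440), a glutamate dehydrogenase, 47.8 ± 2.52 CPM after 2'cADPR and 23.1 ± 3.73 CPM after water. In the list of amino acid breakdown 8 rose and 7 fell of 19: isovaleryl-CoA dehydrogenase (IVD, AT3G45300) had a log2 of 0.52, and MCCB (AT4G34030), a subunit of the methylcrotonyl-CoA carboxylase that follows it in leucine breakdown, one of -1.49. GAD1 (AT5G17330), a glutamate decarboxylase that makes GABA, stood at 14.9, 14.4 and 11.8 CPM after 2'cADPR, against 0.879, 0.718 and 1.27 CPM after water (log2 3.82 ± 0.37, adjusted p = 2.16e-07), and P5CS1 (AT2G39800), of proline synthesis, averaged 15.9 ± 1.21 CPM after 2'cADPR and 53.8 ± 6.54 CPM after water.

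Genes of sulfate assimilation fell in part, and genes of aromatic amino acid synthesis rose in part. For sulfate assimilation and glutathione, 12 of 24 genes fell and 5 rose (median log2 -0.39). The ATP sulfurylase genes, whose products activate sulfate, differed among themselves: APS2 (AT1G19920) averaged 28.3 ± 0.972 CPM after 2'cADPR and 111 ± 12.95 CPM after water, APS3 (AT4G14680) had a log2 of -2.18, and APS1 (AT3G22890) averaged 490.4 ± 19.7 CPM after 2'cADPR and 325 ± 1.38 CPM after water. APK (AT2G14750), which makes the sulfate donor for glucosinolates, fell to 43.6 ± 0.101 CPM after 2'cADPR, against 105 ± 7.04 CPM after water. Of the aromatic amino acid list 16 of 31 rose and 9 fell (median 0.23). ADT4 (AT3G44720), an arogenate dehydratase at the last step to phenylalanine, stood at 154, 177 and 147 CPM after 2'cADPR, against 30.7, 27.97 and 30.9 CPM after water (log2 2.42 ± 0.09, adjusted p = 3.05e-11). Its relative ADT5 (AT5G22630) stood at 111, 123 and 92.8 CPM after 2'cADPR, against 24.4, 21.0 and 23.9 CPM after water (log2 2.24 ± 0.11, adjusted p = 2.17e-10). The groups were apart for both. DHS3 (AT1G22410), which opens the shikimate pathway, had a log2 of 0.999, and the chorismate mutase gene CM1 (AT3G29200) one of -1.17.

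Genes of fatty acid synthesis mostly fell, membrane lipid genes moved both ways, and more genes of peroxisomal lipid breakdown rose than fell. In fatty acid synthesis 17 of 23 genes fell and 2 rose (median log2 -0.96), MOD1 (AT2G05990), the enoyl-ACP reductase, averaging 21.3 ± 1.19 CPM after 2'cADPR and 67.7 ± 11.3 CPM after water, and KASIII (AT1G62640), the initiating condensing enzyme, 15.7 ± 0.461 CPM after 2'cADPR and 35.6 ± 2.30 CPM after water. FAX1 (AT3G57280), which exports fatty acids from the plastid, was one of the exceptions at 131 ± 6.28 CPM after 2'cADPR and 61.2 ± 3.17 CPM after water. In the membrane lipid list 14 of 28 genes fell and 10 rose (median log2 -0.23). The plastid desaturase gene FAD4 (AT4G27030) stood at 2.05, 1.77 and 1.38 CPM after 2'cADPR, against 12.1, 16.5 and 18.0 CPM after water (log2 -3.16 ± 0.16, adjusted p = 3.42e-10). The desaturase genes FAD5 (AT3G15850) and FAD8 (AT5G05580) had log2 values of -1.44 and -2.01. DGD2 (AT4G00550), for the galactolipid that can replace phospholipids outside the plastid, rose (1.35). In peroxisomal beta-oxidation 11 of 19 rose and 4 fell, the rises including the acyl-CoA oxidase gene ACX2 (AT5G65110, 146 ± 6.04 CPM after 2'cADPR and 67.3 ± 2.97 CPM after water) and the activating enzyme genes LACS6 (AT3G05970) and LACS7 (AT5G27600, log2 1.05 and 1.25); the peroxisomal malate dehydrogenase gene PMDH2 (AT5G09660) fell (-1.29). The summed share of this list was lower after 2'cADPR, at 0.400% to 0.451% of counts after 2'cADPR and 0.495% to 0.518% after water. Sphingolipid genes rose in 7 and fell in 4 of 18 cases: the ceramide synthase LOH2 (AT3G19260), which makes ceramides with shorter acyl chains, averaged 72.9 ± 10.099 CPM after 2'cADPR and 18.8 ± 3.50 CPM after water, while FAH2 (AT4G20870), a fatty acid 2-hydroxylase, had a log2 of -1.95.

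Autophagy genes rose almost throughout. Of 22 tested genes 19 rose and 1 fell, with a median log2 of 0.71, and the list made up 0.213% to 0.228% of counts after 2'cADPR and 0.0922% to 0.105% after water. NBR1 (AT4G24690), a receptor that brings ubiquitinated cargo to the autophagosome, stood at 1331, 1301 and 1132 CPM after 2'cADPR, against 411, 366 and 375 CPM after water (log2 1.71 ± 0.08, adjusted p = 9.60e-11). Most of the gain in the summed share of the list lay in NBR1. ATG1A (AT3G61960), the initiating kinase, averaged 108 ± 3.64 CPM after 2'cADPR and 39.8 ± 1.003 CPM after water, and ATG8A (AT4G21980), a ubiquitin-like coat protein, 89.5 ± 2.999 CPM after 2'cADPR and 34.9 ± 2.504 CPM after water. The 1 gene that fell, ATG8F (AT4G16520), did so by 0.19 on the log2 scale, a call lost with RLE scaling (log2 -0.14, adjusted p = 0.0623), in DESeq2 (0.0534), and without the first treated library (0.0745), the first water library (0.0644) or the second (0.0541).

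Aliphatic glucosinolate synthesis had the lowest median of the 51 lists. These are the methionine-derived sulfur compounds with which Arabidopsis deters chewing insects. Of 26 tested genes 23 fell and 0 rose (median log2 -3.08, against -0.01 for all genes), and together they made up 0.0990% to 0.101% of counts after 2'cADPR and 0.231% to 0.244% after water. In chain elongation, IPMI1 (AT3G58990), a small subunit of the isopropylmalate isomerase, stood at 2.12, 2.44 and 1.82 CPM after 2'cADPR, against 46.0, 53.8 and 43.4 CPM after water. IPMI2 (AT2G43100), another small subunit, stood at 3.39, 3.09 and 2.496 CPM after 2'cADPR, against 46.6, 50.7 and 40.8 CPM after water. CYP79F1 (AT1G16410), which turns the elongated amino acid into an aldoxime, stood at 5.18, 7.76 and 3.27 CPM after 2'cADPR, against 132, 138 and 135 CPM after water. In all 3 genes the treated libraries were well below the water libraries (log2 -4.48, -3.94 and -4.64, adjusted p = 3.37e-12, 1.81e-11 and 8.03e-11). CYP83A1 (AT4G13770), the next enzyme, averaged 41.6 ± 0.520 CPM after 2'cADPR and 245 ± 6.91 CPM after water, the glucosyltransferase UGT74C1 (AT2G31790) 8.73 ± 0.543 CPM after 2'cADPR and 71.3 ± 4.28 CPM after water, and the sulfotransferase SOT18 (AT1G74090) 5.56 ± 0.476 CPM after 2'cADPR and 58.1 ± 3.41 CPM after water.

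The regulators of the pathway fell with its enzymes, and 3 members did not pass the test in the main fit. With RLE scaling 1 member of the list rose. MYB28 (AT5G61420), MYB29 (AT5G07690) and MYB76 (AT5G07700), the factors that turn the pathway on, were chosen after their values were seen and fell with log2 values of -2.20, -3.55 and -4.69. MAM1 (AT5G23010) and MAM3 (AT5G23020), the chain-length synthases, are similar in sequence and may share reads (-2.96 and -2.98). Members that did not pass the test were SUR1 (AT2G20610), a C-S lyase that indole glucosinolates also need (log2 0.12), IIL1 (AT4G13430), the large isomerase subunit that leucine synthesis also uses (-0.01), and the transporter gene GTR2 (AT5G62680, -0.02), all chosen after their values were seen. GGP1 (AT4G30530, -0.44), BCAT3 (AT3G49680, -0.89) and SOT17 (AT1G18590, -0.75), likewise, fell by less than the median of the list.

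**Figure D3:**
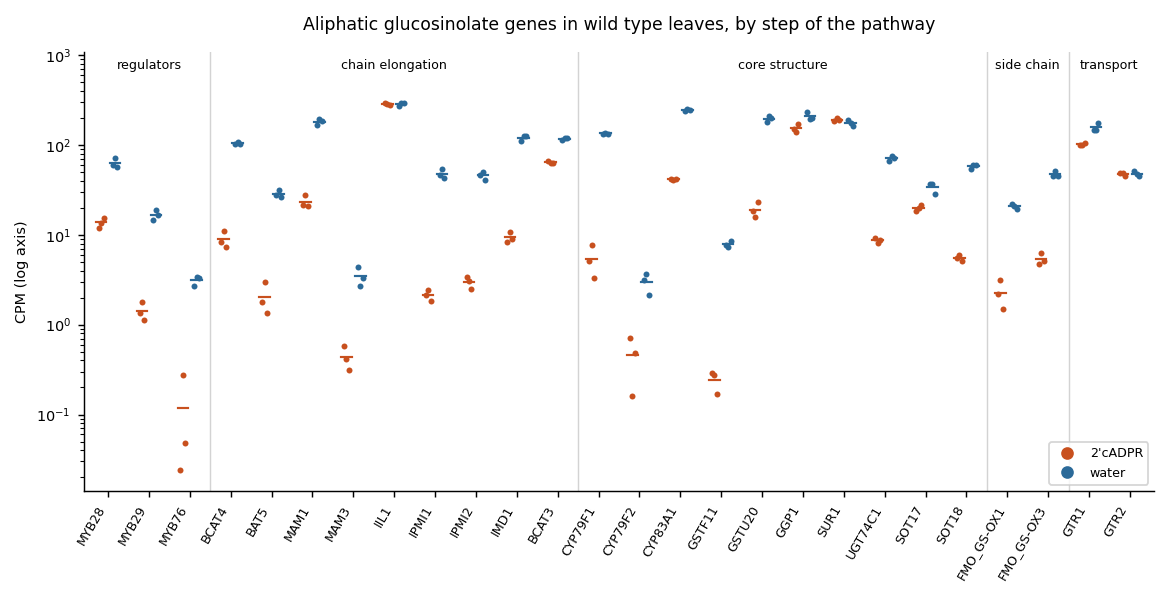
CPM on a log axis for the 26 tested genes of aliphatic glucosinolate synthesis in the order of the pathway; points are single wild type libraries and short lines group means, with 2'cADPR left of water for each gene, and libraries with no read are drawn at the foot of the plot. The 2 groups are apart for most genes and lie together for IIL1, SUR1 and GTR2.

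Other products of secondary metabolism did not share one direction. In the coumarin and sinapate list 4 of 7 genes rose and 1 fell (median log2 1.97, or 0.09 over the 5 that had at least 5 CPM in at least 3 libraries). Beside F6'H1, the glucosyltransferase genes UGT71C1 (AT2G29750) and UGT84A2 (AT3G21560) were higher, UGT71C1 averaging 4.49 ± 0.904 CPM after 2'cADPR and 0.304 ± 0.217 CPM after water, UGT84A2 73.2 ± 8.30 CPM after 2'cADPR and 18.7 ± 1.84 CPM after water. UGT84A2 makes the sinapoylglucose that SNG1 (AT2G22990) turns into sinapoylmalate, the ultraviolet screen of the leaf, and SNG1 fell to 59.3 ± 6.61 CPM after 2'cADPR, against 193 ± 23.2 CPM after water. In general phenylpropanoid metabolism 6 of 20 genes rose and 8 fell: PAL3 (AT5G04230), a phenylalanine ammonia-lyase, averaged 2.1999 ± 0.389 CPM after 2'cADPR and 10.6 ± 1.45 CPM after water, and CCOAOMT1 (AT4G34050), a caffeoyl-CoA methyltransferase, 249 ± 16.96 CPM after 2'cADPR and 140.4 ± 4.42 CPM after water. 4CL3 (AT1G65060), the coumarate ligase of the flavonoid branch, stood at 0.454, 0.139 and 0.0242 CPM after 2'cADPR, against 3.88, 5.24 and 5.17 CPM after water (log2 -4.51 ± 0.44, adjusted p = 2.75e-07), and without the first treated library its log2 was -5.78.

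Flavonoid genes that could be tested fell more often than they rose, and many were too low to test. Of 16 tested genes 8 fell and 4 rose (median log2 -0.93). MYB111 (AT5G49330), a regulator of flavonols, averaged 0.168 ± 0.127 CPM after 2'cADPR and 3.27 ± 0.580 CPM after water, and the flavonol rhamnosyltransferase gene UGT78D1 (AT1G30530) 18.6 ± 2.098 CPM after 2'cADPR and 66.8 ± 4.09 CPM after water. EGL3 (AT1G63650), a bHLH partner of the anthocyanin complex, had 0 counts in the 3 treated libraries together and 121 in the 3 water libraries, at least 44.0-fold lower after 2'cADPR against a floor of 3 counts over the group. MYBL2 (AT1G71030), a repressor of anthocyanins, averaged 36.8 ± 4.97 CPM after 2'cADPR and 16.5 ± 3.74 CPM after water. Of the plastid isoprenoid and carotenoid genes 19 of 26 fell and 4 rose (median -0.52), with the hydroxylase genes BCH1 (AT4G25700) and LUT5 (AT1G31800) at log2 values of -1.44 and -1.21 and the cleavage dioxygenase gene CCD1 (AT3G63520) at -1.09. In tocopherol synthesis VTE3 (AT3G63410) fell (-1.06) and VTE5 (AT5G04490), VTE6 (AT1G78620) and HPD (AT1G06570), which recycle phytol or make homogentisate, rose (0.44, 0.54 and 0.83), for 4 up and 3 down of 9, and the list took 0.0483% to 0.0503% of counts after 2'cADPR and 0.0581% to 0.0641% after water. In sterol synthesis, 6 up and 11 down of 25, the late enzymes DWF1 (AT3G19820) and DWF5 (AT1G50430) went opposite ways (43.8 ± 3.54 CPM after 2'cADPR and 139.6 ± 21.4 CPM after water for DWF1, and 150.1 ± 2.85 CPM after 2'cADPR and 88.4 ± 3.37 CPM after water for DWF5).

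Genes that build and loosen the growing wall fell more often than they rose. Of 18 expansins, which loosen walls without cutting them, 15 fell and 2 rose (median log2 -1.57). EXPA3 (AT2G37640) stood at 2.24, 4.69 and 4.46 CPM after 2'cADPR, against 41.3, 65.9 and 66.2 CPM after water (log2 -3.93 ± 0.27, adjusted p = 6.75e-09). EXPA6 (AT2G28950) stood at 6.45, 7.13 and 7.85 CPM after 2'cADPR, against 66.6, 87.9 and 89.8 CPM after water (log2 -3.51 ± 0.12, adjusted p = 1.01e-11). Neither had groups that overlapped. The rise of EXPA9 (AT5G02260) was small (log2 0.38), and its adjusted p was 0.0574 without the first treated library, 0.0605 without the third and 0.10 without the third water library. Of 23 XTH genes 13 fell and 3 rose (median -1.12). XTH6 (AT5G65730) averaged 10.3 ± 2.58 CPM after 2'cADPR and 133 ± 26.4 CPM after water, and XTH8 (AT1G11545) 1.09 ± 0.119 CPM after 2'cADPR and 17.7 ± 4.18 CPM after water, beside the opposite changes of XTH31 and XTH10 given above. In xyloglucan synthesis and trimming, BGAL10 (AT5G63810), a beta-galactosidase, averaged 21.6 ± 0.638 CPM after 2'cADPR and 97.9 ± 8.01 CPM after water, and the galactosyltransferase genes XLT2 (AT5G62220) and MUR3 (AT2G20370) had log2 values of -1.96 and 0.54, within 3 up and 7 down of 11.

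Cellulose genes of the primary wall fell and those of the secondary wall mostly did not pass the test. The primary wall list had 10 of 14 down and 3 up (median log2 -0.77): CESA1 (AT4G32410), a subunit of every primary wall synthase complex, averaged 199.96 ± 18.2 CPM after 2'cADPR and 495 ± 39.6 CPM after water, CESA2 (AT4G39350) 48.0 ± 2.601 CPM after 2'cADPR and 108 ± 10.5 CPM after water, and CSI1 (AT2G22125), which ties the complex to microtubules, 73.3 ± 4.55 CPM after 2'cADPR and 141 ± 12.1 CPM after water. KOB1 (AT3G08550), needed for cellulose deposition in elongating cells, went up (82.6 ± 10.6 CPM after 2'cADPR and 41.3 ± 1.92 CPM after water). In the secondary wall list 8 of 13 genes were not called, 3 rose and 2 fell (median 0.08), of which the rises of CTL2 (AT3G16920), a chitinase-like protein, and IRX14 (AT4G36890), a xylan synthase, were lost without single libraries. The adjusted p of CTL2 was 0.0606 without the second treated library, 0.0585 without the first water library and 0.0669 without the third. That of IRX14 was 0.0765 without the second treated library and 0.0914 without the third water library. Pectin genes had 13 down and 8 up of 25: PMR6 (AT3G54920), of the pectate lyase family and named for the powdery mildew resistance of its mutant, stood at 6.09, 4.53 and 4.77 CPM after 2'cADPR, against 38.6, 54.3 and 55.4 CPM after water (log2 -3.27 ± 0.14, adjusted p = 5.85e-11). The methylesterase gene PME3 (AT3G14310) averaged 95.7 ± 11.4 CPM after 2'cADPR and 399.6 ± 24.8 CPM after water. PME17 (AT2G45220), of the same enzyme family, stood at 15.9, 23.6 and 19.7 CPM after 2'cADPR, against 1.54, 0.399 and 1.44 CPM after water (log2 4.12 ± 0.32, adjusted p = 2.49e-08), and PGIP1 (AT5G06860), an inhibitor of fungal polygalacturonases, averaged 66.2 ± 6.33 CPM after 2'cADPR and 15.2 ± 2.04 CPM after water. Treated and water libraries were apart in each of these 4 pectin genes.

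Wall glycoprotein genes moved both ways. Of 26 arabinogalactan protein and extensin genes 16 fell and 7 rose (median log2 -1.06), while their summed share was 0.254% to 0.299% of counts after 2'cADPR and 0.201% to 0.226% after water. FLA8 (AT2G45470), a fasciclin-like arabinogalactan protein, stood at 9.45, 13.1 and 8.77 CPM after 2'cADPR, against 126, 197 and 211 CPM after water (log2 -4.09 ± 0.19, adjusted p = 1.32e-10). FLA13 (AT5G44130) and FLA17 (AT5G06390) had log2 values of -2.11 and -1.47. AGP5 (AT1G35230), a classical arabinogalactan protein, stood at 435, 493 and 406 CPM after 2'cADPR, against 33.4, 22.4 and 29.6 CPM after water (log2 3.96 ± 0.17, adjusted p = 6.25e-11). The extensin genes EXT3 (AT1G21310) and EXT4 (AT1G76930), chosen after their values were seen, rose by log2 values of 2.16 and 2.71.

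Cuticle genes fell, apart from 1 that did not pass the test. Of 29 tested genes 28 fell and 0 rose (median log2 -1.46), and they made up 0.123% to 0.154% of counts after 2'cADPR and 0.354% to 0.372% after water. GPAT8 (AT4G00400), which joins fatty acids to glycerol to give cutin monomers, stood at 9.38, 10.99 and 13.5 CPM after 2'cADPR, against 67.9, 78.1 and 89.5 CPM after water (log2 -2.80 ± 0.14, adjusted p = 1.80e-10). LACS2 (AT1G49430), which activates the fatty acids, averaged 7.93 ± 0.905 CPM after 2'cADPR and 46.1 ± 4.74 CPM after water, and HTH (AT1G72970), an oxidoreductase of the cutin pathway whose loss fuses organs, 2.36 ± 0.0853 CPM after 2'cADPR and 22.8 ± 5.24 CPM after water. The cuticle is made by the epidermis. Of 5 epidermis and trichome markers 3 fell and none rose: FDH (AT2G26250) and KCS6 (AT1G68530, both log2 -1.37, chosen as markers) are themselves enzymes of very long chain lipids, and the identity factor ATML1 (AT4G21750) fell by 0.67, while the other two were not called. Their part in the fall of cuticle genes was not tested. Guard cell markers had 1 up and 1 down of 5, and vascular markers 1 down of 5.

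**Figure D4:**
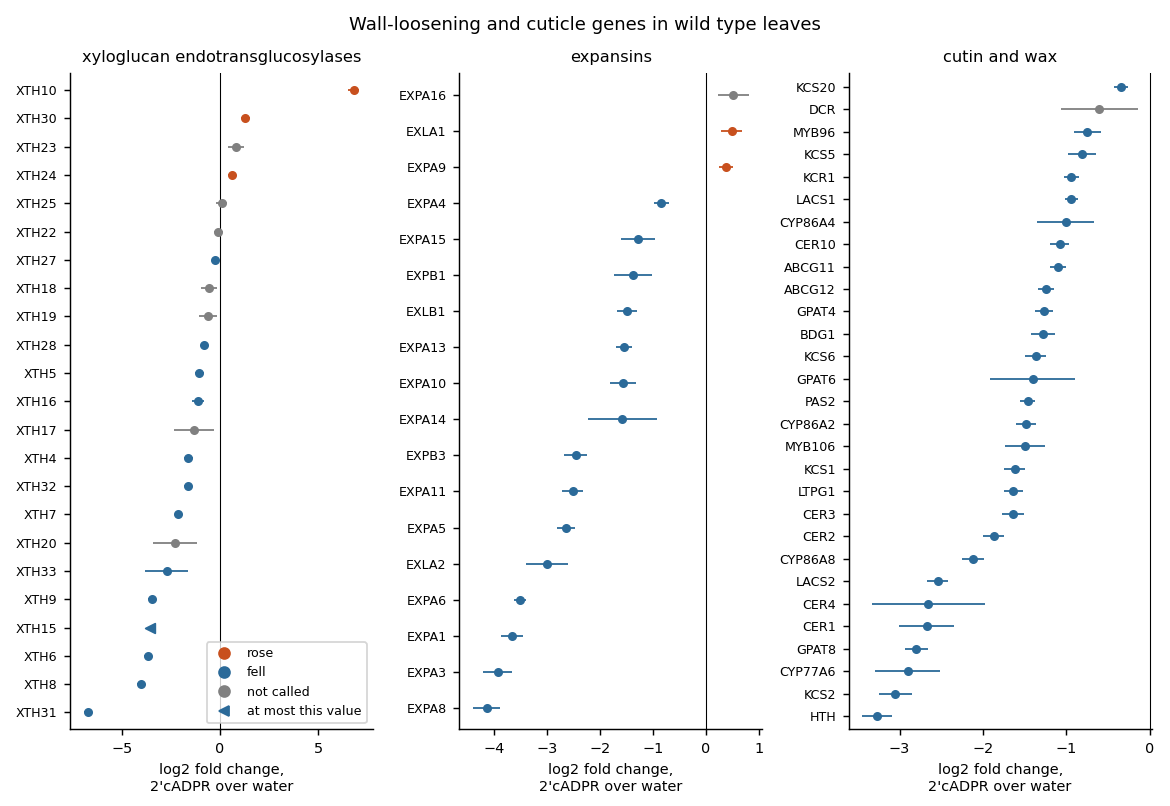
Log2 fold changes (2'cADPR over water, wild type) of tested members of 3 lists, with SE bars from edgeR; orange rose, blue fell, grey did not pass adjusted p under 0.05, and the triangle is a bound for XTH15, which had no reads after 2'cADPR. XTH10 (6.82) and XTH31 (-6.76) are at the ends of their family, and every cuticle gene lies below 0.

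Transporter genes moved both ways within families. For nitrate, ammonium and peptides 10 of 26 genes rose and 12 fell (median log2 -0.04, or 0.006 with RLE scaling). The ammonium transporter AMT1;1 (AT4G13510) stood at 1705, 1862 and 1592 CPM after 2'cADPR, against 537, 455 and 497 CPM after water (log2 1.79 ± 0.10, adjusted p = 8.54e-10), and its relative AMT1;2 (AT1G64780) at 0.0239, 0.0465 and 0.0727 CPM after 2'cADPR, against 4.10, 4.09 and 3.87 CPM after water (log2 -6.31 ± 0.31, adjusted p = 2.20e-10). The 2 ammonium transporter genes thus moved in opposite directions with no overlap in either. NRT2.5 (AT1G12940), a high-affinity nitrate transporter known from nitrogen starvation, stood at 39.5, 33.0 and 34.7 CPM after 2'cADPR, against 3.35, 1.78 and 2.02 CPM after water (log2 3.91 ± 0.25, adjusted p = 2.75e-09), whereas CLC-A (AT5G40890), which loads nitrate into the vacuole, averaged 48.7 ± 2.90 CPM after 2'cADPR and 121 ± 4.06 CPM after water, and NRT2.7 (AT5G14570), which does so in seeds, 9.15 ± 0.583 CPM after 2'cADPR and 26.9 ± 3.55 CPM after water.

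Uptake carriers for sugars and amino acids at the plasma membrane were among the rises. STP13 (AT5G26340), a hexose-proton symporter that retrieves sugar from the cell wall space, averaged 535 ± 39.4 CPM after 2'cADPR and 105 ± 17.3 CPM after water. TMT2 (AT4G35300) and SWEET17 (AT4G15920), sugar carriers of the vacuole membrane, averaged 13.2 ± 1.04 CPM after 2'cADPR and 60.1 ± 5.19 CPM after water for TMT2, whereas SWEET17 itself averaged 3.86 ± 0.413 CPM after 2'cADPR and 17.5 ± 1.76 CPM after water. The sugar list as a whole had 10 up and 11 down of 31 (median log2 -0.10). LHT1 (AT5G40780), a broad amino acid importer of leaf cells, stood at 735, 737 and 709.6 CPM after 2'cADPR, against 214, 151 and 175 CPM after water (log2 2.02 ± 0.12, adjusted p = 1.13e-09). LHT7 (AT4G35180) and AAT1 (AT4G21120), an amino acid carrier of the same family and a cationic amino acid transporter, had log2 values of 3.34 and 2.82, and the GABA transporter gene GAT1 (AT1G08230) one of -1.71, within 13 up and 13 down of 31. In the plastid envelope 11 of 18 genes fell and 3 rose: the pyruvate carrier BASS2 (AT2G26900) averaged 133 ± 1.86 CPM after 2'cADPR and 297 ± 23.7 CPM after water, and the ATP/ADP carrier NTT2 (AT1G15500) 35.6 ± 1.39 CPM after 2'cADPR and 77.7 ± 4.33 CPM after water. GPT2 (AT1G61800), which moves glucose 6-phosphate and is known to respond to high sugar, stood at 7.86, 11.1 and 6.23 CPM after 2'cADPR, against 0.825, 0.984 and 1.06 CPM after water (log2 3.13 ± 0.28, adjusted p = 1.22e-07).

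Ion transport genes also moved both ways. Of the potassium and sodium genes 8 rose and 11 fell of 22. AKT2 (AT4G22200), a phloem potassium channel, averaged 7.98 ± 1.296 CPM after 2'cADPR and 45.3 ± 2.33 CPM after water, and the potassium carriers KUP3 (AT3G02050) and KUP1 (AT2G30070) 9.11 ± 0.924 CPM after 2'cADPR and 41.7 ± 3.66 CPM after water for KUP3, and 104 ± 4.65 CPM after 2'cADPR and 39.2 ± 3.44 CPM after water for KUP1. CHX17 (AT4G23700), a cation-proton exchanger, stood at 15.9, 14.2 and 11.2 CPM after 2'cADPR, against 1.35, 0.0798 and 0.793 CPM after water (log2 4.22 ± 0.55, adjusted p = 1.34e-05); its first water library was the highest of the 3, and without it the log2 was 4.95. Phosphate genes had 8 up and 4 down of 17: PHF1 (AT3G52190), which releases phosphate transporters from the endoplasmic reticulum, averaged 34.0 ± 2.08 CPM after 2'cADPR and 12.96 ± 1.27 CPM after water, and PHT2;1 (AT3G26570), the plastid phosphate carrier, 40.5 ± 3.53 CPM after 2'cADPR and 162 ± 17.7 CPM after water. The phosphate list took 0.0730% to 0.0742% of counts after 2'cADPR and 0.0892% to 0.0906% after water. Of the sulfate carriers 3 rose and 2 fell of 9, with SULTR1;2 (AT1G78000), the main root uptake carrier, at 3.66 ± 1.17 CPM after 2'cADPR and 0.437 ± 0.145 CPM after water. Iron, zinc and copper genes fell in 17 and rose in 6 of 33 cases (median log2 -0.48), the ferric reductases FRO6 (AT5G49730) and FRO7 (AT5G49740), which are similar neighbours and may share reads, averaging 9.43 ± 1.51 CPM after 2'cADPR and 56.6 ± 7.55 CPM after water for FRO6, 16.3 ± 1.91 CPM after 2'cADPR and 58.3 ± 4.10 CPM after water for FRO7, and the plastid iron store FER3 (AT3G56090) 30.3 ± 5.04 CPM after 2'cADPR and 64.9 ± 5.68 CPM after water. ZIP11 (AT1G55910), a zinc transporter family member, was higher (log2 0.85).

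Water channel genes mostly fell, and 2 proton pumps that energise the plasma membrane went opposite ways. Of 20 aquaporins 16 fell and 1 rose (median log2 -0.92), and their share was 0.248% to 0.303% of counts after 2'cADPR and 0.527% to 0.669% after water. PIP2;7 (AT4G35100) and PIP1;3 (AT1G01620), of the plasma membrane, averaged 27.2 ± 5.79 CPM after 2'cADPR and 266 ± 62.8 CPM after water for PIP2;7, and 29.4 ± 3.05 CPM after 2'cADPR and 198 ± 38.6 CPM after water for PIP1;3. TIP1;2 (AT3G26520), of the vacuole membrane, stood at 138, 179 and 175 CPM after 2'cADPR, against 641, 807 and 968 CPM after water (log2 -2.30 ± 0.14, adjusted p = 1.63e-09). Every treated library was below every water library in these 3 genes. The exception SIP1;1 (AT3G04090), an intracellular channel, had a log2 of 1.002. Among proton pumps 9 of 13 fell: the plasma membrane pump AHA11 (AT5G62670) stood at 11.03, 9.78 and 11.3 CPM after 2'cADPR, against 153, 183 and 201 CPM after water (log2 -4.06 ± 0.12, adjusted p = 4.01e-12), while AHA2 (AT4G30190) stood at 711, 721 and 587 CPM after 2'cADPR, against 343, 361 and 408 CPM after water (log2 0.86 ± 0.11, adjusted p = 4.33e-06). AVP1 (AT1G15690), the vacuolar pyrophosphatase, averaged 379.8 ± 26.0 CPM after 2'cADPR and 876 ± 93.4 CPM after water.

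Among ABC and MATE transporters, many of which export small molecules, more genes rose than fell. Of 24 ABC and MATE genes 14 rose and 6 fell (median log2 0.65), and they made up 0.370% to 0.426% of counts after 2'cADPR and 0.217% to 0.246% after water. ABCG40 (AT1G15520), a plasma membrane pump known as an importer of abscisic acid, stood at 283, 319 and 178 CPM after 2'cADPR, against 7.20, 3.72 and 6.44 CPM after water (log2 5.49 ± 0.34, adjusted p = 1.87e-09). ABCB11 (AT1G02520), of the family that holds the auxin exporters, stood at 27.6, 23.8 and 20.3 CPM after 2'cADPR, against 0.467, 0.213 and 0.313 CPM after water (log2 6.17 ± 0.34, adjusted p = 6.67e-10). ABCC3 (AT3G13080), a vacuolar glutathione conjugate pump, averaged 419.5 ± 24.3 CPM after 2'cADPR and 69.1 ± 11.4 CPM after water, and ABCC14 (AT3G62700) 26.6 ± 3.42 CPM after 2'cADPR and 136 ± 13.6 CPM after water. The first 3 were above their water range in every treated library, and ABCC14 was below it.

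**Figure D5:**
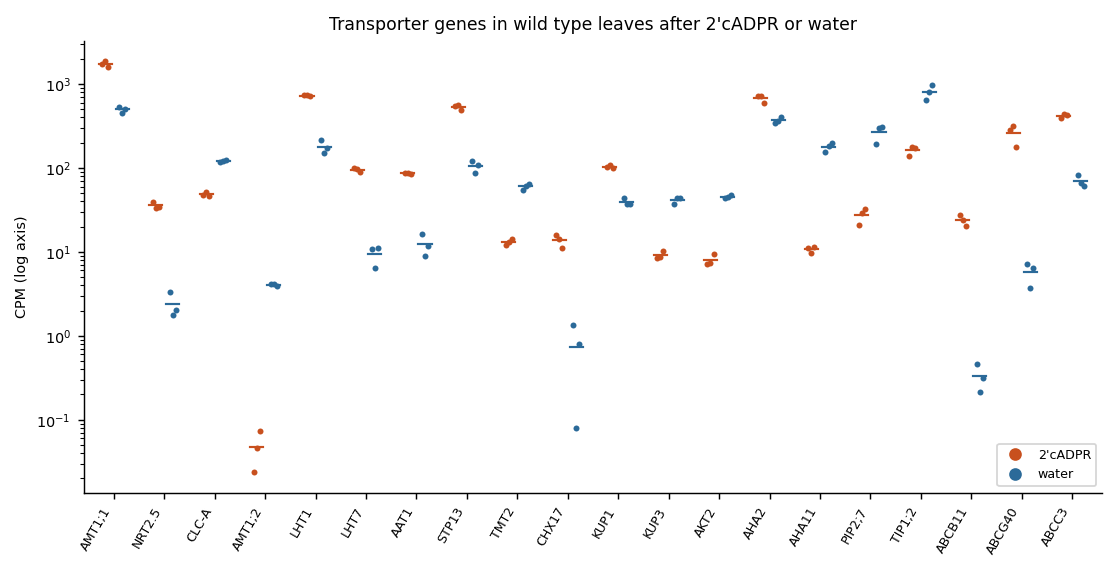
CPM on a log axis for 20 transporter genes, all named by rule; points are single wild type libraries and short lines group means, with 2'cADPR left of water for each gene. AMT1;1 lies higher and AMT1;2 lower after 2'cADPR, and so do AHA2 and AHA11.

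Genes of the cytoskeleton mostly fell, and those of the cell cycle moved both ways. Of 22 tubulin and actin genes 16 fell and 3 rose (median log2 -0.87). TUB5 (AT1G20010), a beta-tubulin, stood at 57.4, 63.3 and 65.8 CPM after 2'cADPR, against 228, 289.7 and 305 CPM after water (log2 -2.14 ± 0.10, adjusted p = 1.50e-10); TUB2 (AT5G62690) and TUB3 (AT5G62700, log2 -1.36 and -2.12) are near-identical and may share reads. TUA1 (AT1G64740), an alpha-tubulin known chiefly from pollen, rose to 103 ± 4.93 CPM after 2'cADPR, against 47.5 ± 2.42 CPM after water. In the cell cycle list 14 of 41 genes fell and 7 rose, both shares near or below the background of 34.6%, and its median of -0.24 was 0.18 over the 21 genes with at least 5 CPM in at least 3 libraries. The summed share of the cell cycle list was higher after 2'cADPR, at 0.0464% to 0.0473% of counts after 2'cADPR and 0.0380% to 0.0429% after water. The D-type cyclin genes CYCD1;1 (AT1G70210) and CYCD3;2 (AT5G67260) averaged 1.12 ± 0.314 CPM after 2'cADPR and 6.19 ± 1.46 CPM after water for CYCD1;1, and 5.35 ± 0.788 CPM after 2'cADPR and 11.9 ± 0.351 CPM after water for CYCD3;2. E2FC (AT1G47870), a repressor of cell division genes, averaged 16.3 ± 1.14 CPM after 2'cADPR and 7.69 ± 0.396 CPM after water, and the kinase inhibitor gene KRP2 (AT3G50630) 3.75 ± 0.618 CPM after 2'cADPR and 10.7 ± 1.17 CPM after water.

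Regulators of leaf growth and genes of 2 growth hormones mostly fell. Of 19 regulators 13 fell and 4 rose (median log2 -0.99). TCP4 (AT3G15030) and TCP3 (AT1G53230), which time the end of cell division in the leaf, were lower, TCP4 averaging 41.7 ± 4.997 CPM after 2'cADPR and 91.0 ± 4.41 CPM after water, TCP3 65.2 ± 5.59 CPM after 2'cADPR and 123 ± 1.93 CPM after water. GRF4 (AT3G52910), a growth-regulating factor, had 2 counts in the 3 treated libraries together and 179 in the 3 water libraries, a ratio of 0.0102 with a 95% exact counting interval of 0.00123 to 0.0375. DA1 (AT1G19270), which limits organ size, rose to 73.4 ± 6.02 CPM after 2'cADPR, against 24.0 ± 2.97 CPM after water. Of 21 gibberellin and brassinosteroid genes 15 fell and 3 rose (median -0.95). BES1 (AT1G19350), a transcription factor of brassinosteroid signalling, stood at 14.9, 19.1 and 23.6 CPM after 2'cADPR, against 74.1, 91.5 and 92.7 CPM after water (log2 -2.16 ± 0.15, adjusted p = 5.16e-09), and BEE2 (AT4G36540) and HBI1 (AT2G18300), growth-promoting bHLH factors, had log2 values of -2.13 and -1.29. GA2OX2 (AT1G30040), which inactivates gibberellin, averaged 26.2 ± 4.85 CPM after 2'cADPR and 5.65 ± 0.418 CPM after water.

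Cytokinin genes fell more often than they rose. Of 16 genes 10 fell and 4 rose (median log2 -1.08). The receptor genes AHK2 (AT5G35750) and AHK4 (AT2G01830) were lower, AHK2 averaging 4.77 ± 0.610 CPM after 2'cADPR and 25.8 ± 2.72 CPM after water, AHK4 1.84 ± 0.122 CPM after 2'cADPR and 11.8 ± 1.61 CPM after water. ARR7 (AT1G19050), a response regulator that cytokinin induces, stood at 4.97, 5.20 and 5.57 CPM after 2'cADPR, against 36.2, 42.7 and 47.0 CPM after water (log2 -3.00 ± 0.14, adjusted p = 9.78e-11). CKX4 (AT4G29740), a cytokinin oxidase that degrades the hormone, stood at 112, 123 and 91.1 CPM after 2'cADPR, against 14.9, 13.1 and 23.0 CPM after water (log2 2.67 ± 0.20, adjusted p = 1.69e-08). AHK3 (AT1G27320), the third receptor, rose by a log2 of 0.18, with 119 ± 7.48 CPM after 2'cADPR and 105 ± 1.11 CPM after water. ARR5 (AT3G48100), a response regulator like ARR7, rose by a log2 of 1.12, while the other response regulators of the list fell. Both AHK3 and ARR5 were chosen after their values were seen.

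Genes of protein synthesis had medians near that of all genes, but ribosomal protein genes fell more often than they rose. Of 314 tested ribosomal protein genes of all compartments 36 rose and 140 fell (median log2 -0.17), or 45 and 114 with RLE scaling. In the main fit the falls were above and the rises below the background of 34.6%. By at least 2-fold 5 rose and 37 fell, below the 12.8% and 17.8% of all genes. The ribosomal list made up 2.3957% to 2.8538% of counts after 2'cADPR and 3.2654% to 3.3698% after water. Of 51 aminoacyl-tRNA synthetase genes 21 rose and 19 fell (median 0.09), 2 and 6 of them by at least 2-fold. Ranked by the gain in mean CPM over all called genes, the first 10 were PCR1 (AT1G14880), HR4 (AT3G50480), ECS1 (AT1G31580), AT3G09440, NUDT6 (AT2G04450), HSC70-1 (AT5G02500), BIP2 (AT5G42020), Hsp70-2 (AT5G02490), LURP1 (AT2G14560) and SHD (AT4G24190), of which AT3G09440, HSC70-1, BIP2, Hsp70-2 and SHD encode chaperones of the Hsp70 and Hsp90 families and similar copies may share reads. PCR1, of a family of cadmium resistance proteins, stood at 4640.4, 3753 and 4346 CPM after 2'cADPR, against 921, 543 and 412 CPM after water (log2 2.76 ± 0.27, adjusted p = 2.40e-07). HR4, a homologue of RPW8, averaged 3988 ± 245 CPM after 2'cADPR and 555 ± 126 CPM after water. LURP1, known as a gene induced late in resistance to Hyaloperonospora, averaged 2498 ± 121 CPM after 2'cADPR and 994 ± 118 CPM after water, but its adjusted p was 0.0366 and was 0.0895 in DESeq2. That p was 0.0580 to 0.0637 without any 1 of the treated libraries, 0.0821 without the second water library and 0.0982 without the third.

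The same lists were set beside the response of pad4 leaves, which comes from other libraries than that of wild type but from the same fit. PAD4 itself stood at 3.02, 2.52 and 4.80 CPM after 2'cADPR and at 3.14, 2.94 and 5.51 CPM after water in the libraries labelled pad4. In wild type it stood at 548, 589.6 and 518 CPM after 2'cADPR, against 75.03, 63.9 and 66.8 CPM after water. In pad4 1 gene (0.00509%) was called between 2'cADPR and water, and the medians of the 51 lists lay between -0.17 and 0.20. The difference between the 2 responses was tested for each gene as an interaction, which called 11326 genes (57.6%). Of the 13608 genes called in wild type, 11174 were among these, and in 11146 of them the pad4 change was the smaller in size. Choosing genes by their wild type change and a called interaction largely fixes that last count, so nothing is drawn from it. Of 226 genes named by rule 217 had an interaction, but the rule picks genes by their wild type change, which also enters the interaction. XTH10 had a log2 of 0.60 in pad4 and 6.82 in wild type (interaction adjusted p = 3.08e-06), and CYP79F1 0.24 in pad4 and -4.64 in wild type (2.85e-09). AMT1;1 had -0.03 in pad4 and 1.79 in wild type (7.07e-08). F6'H1 was one of the 9 without a called interaction, at 0.75 in pad4 and 6.35 in wild type (adjusted p = 0.269), which does not show that its response was alike.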

How the data were processed

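Poly(A) RNA-seq was deposited for 12 rosette leaf libraries. Per the labels, TRIzol was used to extract RNA, and a SMARTER mRNA-seq kit to make the libraries. The deposited count table holds raw read counts per gene. The deposited FPKM table, which the authors computed from those counts, was used only to check gene lengths: the implied length matched the exons of TAIR10.1 for 24224 of 24228 genes within 1%. The per-sample files equalled the tables in 24 of 24 cases. Per the submitters' processing notes, fastp, HISAT and HTSeq were used with TAIR10. With versions, settings and the strand of counting not given in the sources used here, near-identical copies and overlapping antisense genes stay uncertain.

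edgeR 4.0.16 in R 4.3.3 was run on the counts (TMM scaling, filterByExpr with a minimum count of 10, quasi-likelihood F-tests, two-sided, group means over 12 libraries), which tested 19652 of 24228 genes, holding 99.98% of counts. The median SE of a log2 fold change was 0.120. On simulated counts with 3 libraries a group, 88.2% of genes with a true log2 of -1 and 81.8% with a true log2 of 1 were called. Only a small part of the genes was changed in the simulation, none of them with few reads. These rates therefore do not carry over to genes with few reads, nor to data where most genes change. Lists, described by counts and medians with no set test, were written from general knowledge, and 3 further lists by annotated product, whose ribosomal pattern was set after the annotation was read. The members and lists were chosen with earlier results of these data known.

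Named genes follow a rule: for each list, up to 3 called members with the smallest adjusted p in its main direction and 1 in the other, the 10 largest gains and losses of CPM, and the 10 largest rises and falls among list members whose replicates do not overlap and whose higher group mean is 5 CPM or more. Not every gene this rule names is reported here. Others are said to be chosen after their values were seen. Alternatives were RLE factors, 2 other filters on low counts, DESeq2 1.42.0, limma-voom (limma 3.58.1), a replicate block, a fit of the wild type libraries alone and leaving out each library. Scaling by library totals alone was added after seeing the data.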

Additional observations from a re-analysis of the deposited data

Results flagged for a closer look

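The response to 2'cADPR differed between pad4 and wild type leaves, by edgeR's test of the interaction, in 11326 of 19652 genes. Of the genes called in wild type, 11174 differed in this way, which is 82.1% of them, and of the 6002 called with at least 2-fold change 5383 did. These genes were chosen by their wild type change, which also enters the interaction, so a share above that of all genes is partly fixed by the choice. Both counts rest on 3 libraries in each of the 4 groups. Outlying samples were not looked for, since groups of 3 are too small for that.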

How the results depend on the processing

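The count of genes called in wild type, 13608, lay between 11522 (at least 5 CPM in at least 3 libraries, where 14770 genes were tested) and 13726 (DESeq2) over the alternatives, and between 12833 and 13382 on leaving out 1 library. At least 2-fold rises numbered 1795 to 2754 and falls 2502 to 3542, beside 2510 and 3492. Interactions numbered 11326, with 10044 under the 5 CPM filter. Deviations of same-numbered treated and water libraries had Pearson's r of 0.11, 0.074 and -0.042 across genes, and those of differently numbered ones -0.12 to 0.056. With 3 libraries a group this cannot tell whether the numbers pair libraries. With the replicate block 13468 genes were called. Of the genes named by rule no direction reversed in 3156 comparisons with an alternative, and 21 calls were lost, all in ATG8F, CTL2, IRX14, EXPA9, SULTR3;4 and LURP1. RLE scaling moved the median of all genes by 0.05 on the log2 scale and turned the medians of 5 lists within that distance of 0 from negative to positive, and with it 114 ribosomal protein genes fell. Medians of lists moved beyond the spread between replicates in 133 of 825 comparisons, the farthest that of coumarin and sinapate genes under the 5 CPM filter (0.09, over 5 genes). The causes were not tested. Counting error limits genes with few reads: EGL3 and XTH15 had none after 2'cADPR, and lists' medians were the same with both set to their bounds. Dose and time are unknown, no protein or metabolite was measured, and lists of known genes leave other genes undescribed.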
